A study of Mus musculus with 14 samples.

Results

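Day 3 myotubes of the mouse myoblast line C2C12 were compared after transfection with Klf5 siRNA (siKlf5) or control siRNA (siCtrl), transcript by transcript. Members were protein-coding transcripts (RefSeq NM identifiers) whose value averaged at least 10 FPKM over the 8 RNA libraries of the study, and 10888 of the 20486 protein-coding transcripts, within 24016 transcripts in all, met this rule. Of the others, 3223 were at 0 in all 8 libraries and 6375 were above 0 with a lower mean.

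C2C12 cells are a line derived from mouse muscle that grows as single myoblasts and fuses into multinucleated myotubes when serum is reduced. Both groups were unmodified C2C12 cells transfected with siRNA by RNAiMAX and moved to differentiation medium with 2% horse serum, and the Klf5 siRNA was a pool of several siRNAs (SMARTpool). The knockdown was transient, a single cell line was used, and poly(A) RNA was sequenced from 1 library per siRNA on each of days 0, 1, 2 and 3. No condition has a replicate, so no value carries a replicate error, the day 3 comparison alone allows no test and no p-value is given. The siRNAs were not compared over the 4 days together, which would ask another question. The 6 ChIP samples of the series were not analysed here.

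Klf5 is a zinc finger transcription factor of the Krüppel-like family, whose members bind GC-rich and CACCC sequences. In muscle differentiation the E-box binding factors MyoD and myogenin, together with Mef2 factors, switch on the genes of the contractile apparatus while the cell cycle is shut down. Skeletal myosin heavy chains are a family of isoforms. Myh3 and Myh8 are developmental forms, Myh7 is the slow form shared with the heart, Myh6 is a cardiac form, and Myh1, Myh2 and Myh4 are the adult fast forms.

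The FPKM values were scaled to a matrix total of 10000000 per library, which makes them larger than FPKM in the usual sense. Every ratio is the log2 of knockdown over control FPKM after 0.1 was added to both, so differences of transcripts with low values come out too small. No more than 3 reads were kept at a position, so differences of very abundant transcripts may come out too small as well. How far this cap acts was not tested. The reads behind each value were recovered from the FPKM step of 1 read, and came to 12366627 reads in the control and 10864084 in the knockdown library of day 3 (7850497 to 20301506 over the 8 libraries). A 95% exact (Clopper-Pearson) interval on reads divided by 6 was computed for single ratios and is printed beside many of them, though not all. It covers counting error only and says nothing about variation between cultures. Because whole cultures were sequenced, fewer cells of a kind and less RNA per cell cannot be told apart.

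The promoters of 4 genes that the comparison turns on are shown first, 2 with lower and 2 with higher RNA in knockdown myotubes. Each window runs from 250 bases before to 50 bases after the RefSeq start on GRCm38.p6, 5′ to 3′ along the gene. Capitals mark the E-box letters CANNTG and the letters CACCC on either strand (GGGTG on the other). The windows lie at chr1:134289754-134290053, plus strand (Myog, the transcription factor myogenin), chr11:104550413-104550712, plus strand (Myl4, the atrial and embryonic myosin light chain), chr11:67237562-67237861, plus strand (Myh4, the fastest adult myosin heavy chain) and chr10:88605103-88605402, minus strand (Mybpc1, slow type myosin binding protein C).
Myog: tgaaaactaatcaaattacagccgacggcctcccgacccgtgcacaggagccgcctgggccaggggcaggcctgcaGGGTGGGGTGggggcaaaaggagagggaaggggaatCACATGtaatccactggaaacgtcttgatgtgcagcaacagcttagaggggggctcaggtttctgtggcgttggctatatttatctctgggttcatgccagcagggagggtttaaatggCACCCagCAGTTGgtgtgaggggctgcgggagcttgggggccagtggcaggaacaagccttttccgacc
Myl4: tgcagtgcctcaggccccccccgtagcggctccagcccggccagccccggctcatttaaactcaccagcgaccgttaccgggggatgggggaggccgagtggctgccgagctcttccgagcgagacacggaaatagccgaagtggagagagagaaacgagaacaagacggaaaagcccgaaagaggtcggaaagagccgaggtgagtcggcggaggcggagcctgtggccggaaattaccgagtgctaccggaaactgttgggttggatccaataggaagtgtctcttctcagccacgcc
Myh4: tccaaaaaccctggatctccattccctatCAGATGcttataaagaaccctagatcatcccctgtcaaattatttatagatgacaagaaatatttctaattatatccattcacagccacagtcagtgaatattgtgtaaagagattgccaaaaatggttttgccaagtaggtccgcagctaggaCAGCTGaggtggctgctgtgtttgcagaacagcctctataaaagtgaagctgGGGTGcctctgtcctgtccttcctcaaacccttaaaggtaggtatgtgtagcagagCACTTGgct
Mybpc1: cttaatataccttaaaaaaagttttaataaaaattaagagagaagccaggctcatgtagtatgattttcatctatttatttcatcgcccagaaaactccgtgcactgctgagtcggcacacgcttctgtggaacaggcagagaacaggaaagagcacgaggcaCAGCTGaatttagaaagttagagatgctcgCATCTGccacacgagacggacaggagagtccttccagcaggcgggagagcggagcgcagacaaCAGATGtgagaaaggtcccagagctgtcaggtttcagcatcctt
The Myog window held 2 matches to CANNTG and 3 to CACCC, and the Myl4 window held 0 of either. Myh4 held 3 and 1, and Mybpc1 held 3 and 0. None of these 4 windows held CCGCCC on either strand. Promoter windows were found by symbol for 8283 of the 10888 measured transcripts, and the first window listed was used for each gene. CACCC on either strand was present in 73.7% of 76 windows of transcripts whose whole counting interval was lower past 1.5-fold, in 76.3% of 38 windows of those higher past it, in 62.6% of all measured ones and in 56.7% of 27025 genes with a window. The corresponding shares for CANNTG were 72.4%, 71.1%, 61.8% and 72.1%. For CCGCCC on either strand they were 57.9%, 55.3%, 67.1% and 35.9%. No test was made of these shares. A match is a description of the letters and not a binding site.

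On day 3, 728 of the 10888 transcripts (6.69%) were lower by more than 1.5-fold in knockdown myotubes and 597 (5.48%) were higher, while 9563 (87.8%) lay between. The median log2 ratio was 0.00, and the 5th and 95th percentiles were -0.68 and 0.61. The share past the cutoff depended on the reads behind a transcript. Among the 150 transcripts with fewer than 60 reads in the 2 libraries together, 27.3% were lower and 35.3% were higher by this cutoff. Among the 239 with at least 10000 reads, 1.67% were lower and 0.84% were higher. Transcripts whose whole counting interval lay past 1.5-fold are therefore given separately and called clearly lower or clearly higher, which refers to these libraries. There were 112 clearly lower (1.03%) and 47 clearly higher transcripts (0.432%). These counts depend on the unit of reads taken for the interval, with 161 and 95 for reads divided by 3 and 296 and 223 for single reads. Whole intervals below 0 were found for 914 transcripts and above 0 for 854. Just outside the mean of 10 stood Elovl4, Tigd5 and Zfp429 with log2 ratios of 0.73, 0.35 and -0.28, and just inside it Fetub, Gbp2 and Prdm9 with -1.25, -0.84 and 0.79.

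**Figure D1:**
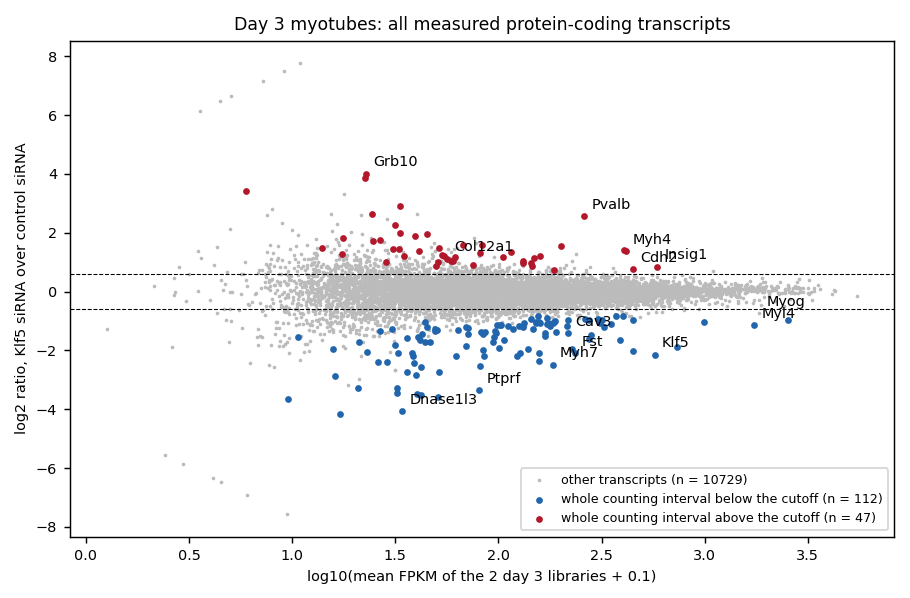
Each point is 1 of the 10888 measured transcripts, with the log10 mean FPKM of the 2 day 3 libraries on the x axis and the log2 ratio of Klf5 siRNA over control siRNA on the y axis. Dashed lines mark 1.5-fold, and the 112 blue and 47 red points are transcripts whose whole counting interval lies past it. Points fan out at low FPKM, and Klf5, Myl4 and Myh7 stand below the cloud at high FPKM while Myh4, Cdh2 and Insig1 stand above it.

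Klf5 RNA (NM_009769, chromosome 14, 99697910 to 99712628, plus strand, mm9) stood at 933 FPKM in control and 211 in knockdown myotubes, which left 22.7% of the control level (log2 ratio -2.14, counting interval -2.45 to -1.84). Control cells held 224, 381, 614 and 933 FPKM of Klf5 on days 0 to 3, and knockdown cells held 35.1, 159.6, 192 and 211. Every knockdown library was below its control library, and within each series Klf5 stood higher on each later day. Myog stood at 2293 FPKM in control and 1386 in knockdown myotubes (log2 ratio -0.73, -0.87 to -0.58), and Myl4 at 2390.4 FPKM in control and 1087 in knockdown myotubes (-1.14, -1.34 to -0.94). Both genes were lower in the knockdown library, Myl4 by the larger factor, and both were abundant in either culture.

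Of 16 measured members of the Klf and Sp family, 3 (Klf5 among them) were lower by more than 1.5-fold (18.8%, background 6.69% of all measured transcripts). The 1 that was higher made up 6.25%, near the background of 5.48%, and the median was -0.15. Klf10 (TGF-beta inducible) stood at 174 FPKM in control and 111 in knockdown myotubes (log2 ratio -0.65, -1.01 to -0.29). Klf2 (-0.43) and Klf3 (-0.33) were lower with counting intervals that left out 0 but did not pass 1.5-fold. Klf7 (log2 ratio 0.72) and Sp6 (-0.66) passed the cutoff with intervals that included 0. Klf4 (0.11), Klf6 (0.05), Klf9 (-0.31), Klf11 (-0.48), Klf13 (-0.22), Klf16 (0.03), Sp1 (0.18), Sp2 (0.26), Sp3 (0.20) and Sp8 (-0.08) had intervals that included 0.

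The cultures carried the markers of differentiating muscle on both sides. Des, Cdh15, Ckm, Acta1, Tnnt3 and Myh3 lay between 855 and 4351 FPKM in the 2 libraries of day 3. Myod1 was 529 FPKM in control and 557 in knockdown myotubes (log2 ratio 0.07), Ckm, the muscle creatine kinase, was 1094 FPKM in control and 1096 in knockdown myotubes, and Myh3 was 2790.4 FPKM in control and 2685 in knockdown myotubes (log2 ratio -0.06). Of the 12 myoblast and myotube markers, 3 (Klf5, Myog and Myl4, the genes given for the comparison) were lower and 0 were higher by more than 1.5-fold. The cap on reads per position may hold down the ratios of markers as abundant as these. Most markers of other cell types were not members of the comparison. The adipocyte genes Adipoq, Fabp4, Plin1, Cidec and Lep were listed at 0 in both libraries, and of the 3 measured among 9 adipocyte markers only Lpl, which encodes lipoprotein lipase and is also expressed in muscle, passed the cutoff, at 91.8 FPKM in control and 205 in knockdown myotubes. Pparg was 42.0 FPKM in control and 33.6 in knockdown myotubes, Cebpa 35.0 and 35.4, and Cfd 0 and 2.4. None of the 8 blood and endothelial markers was a member. The highest of them, the macrophage gene Cd68, is listed under a non-coding (NR) identifier and stood at 9.66 FPKM in control and 15.2 in knockdown myotubes. The bone and cartilage genes Ibsp, Alpl and Acan were listed at 0 in both libraries. Bglap was 10.3 FPKM in control, from 10 reads, and 0 in knockdown myotubes, Sp7 was 0 and 1.47, and Col2a1 0.865 and 0. The 2 measured genes of that list, Runx2 (50.5 FPKM in control and 64.8 in knockdown myotubes) and Sox9 (191 and 200), did not pass the cutoff. Of 5 measured smooth muscle markers 0 passed the cutoff, with Acta2 at 1196 FPKM in control and 1207 in knockdown myotubes. Among the satellite cell markers Cd34 was 139 FPKM in control and 67.8 in knockdown myotubes (log2 ratio -1.04) and Vcam1 was 146 FPKM in control and 237 in knockdown myotubes (0.70), while Pax3 and Calcr were listed at 0. Of the 7 epithelial markers, Epcam and Krt18 were listed at 0 in both libraries and Krt8 and Krt5 were below 1 FPKM. Cdh1 (E-cadherin) stood at 38.1 FPKM in control and 14.9 in knockdown myotubes (log2 ratio -1.35). The keratin gene Krt14 was 18.6 FPKM in control and 23.3 in knockdown myotubes (0.32), and the claudin gene Cldn4 was listed at 0 in control and stood at 1.85 FPKM in knockdown myotubes.

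Thick filament genes were found among both the lower and the higher transcripts. Of 25 measured genes of the thick filament and M band, 6 were lower (24.0%, background 6.69%) and 4 were higher (16.0%, background 5.48%) by more than 1.5-fold. The median was -0.22, beside 0.00 over all measured transcripts. Myh7 (NM_080728, chromosome 14, 55589525 to 55613386, minus strand) stood at 311 FPKM in control and 55.5 in knockdown myotubes (log2 ratio -2.48, -2.80 to -2.18), and its neighbour Myh6 at 52.4 FPKM in control and 12.3 in knockdown myotubes (-2.08, -2.82 to -1.42). Both were below control on every day. Myh7 was 7.86, 20.6, 106 and 311 FPKM in control and 2.88, 5.11, 15.7 and 55.5 in knockdown cells on days 0 to 3. Myl2, the slow regulatory light chain, had a mean under 10 and stood at 36.7 FPKM in control and 5.37 in knockdown myotubes, from few reads (counting interval -8.25 to 0.13).

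The fast heavy chain Myh4 (NM_010855, chromosome 11, 67051314 to 67073949, plus strand) went the other way. It stood at 228 FPKM in control and 598 in knockdown myotubes (log2 ratio 1.39, 1.23 to 1.55), and on days 0 to 3 it was 7.97, 22.6, 71.2 and 228 FPKM in control and 25.6, 53.0, 231 and 598 in knockdown cells. Mybpc1, the slow type myosin binding protein C, was also higher, at 65.3 FPKM in control and 165 in knockdown myotubes (log2 ratio 1.34, 0.97 to 1.72). The other fast chains did not share this direction. Myh1 was 1489 FPKM in control and 1071 in knockdown myotubes (log2 ratio -0.47, -0.56 to -0.39), and Myh2 was 146 FPKM in control and 122 in knockdown myotubes (-0.25, -0.51 to 0.00). The developmental chain Myh8 had a log2 ratio of -0.22. Myh1, Myh2, Myh8, Myl2 and Ttn fall outside the rule for named genes and were chosen after their values were seen. Myosin heavy chain genes are near-identical over long stretches, so the split of reads between Myh6 and Myh7 and among Myh1, Myh2, Myh4 and Myh8 is uncertain.

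Ttn, which encodes titin, was 51.9 FPKM in control and 98.2 in knockdown myotubes (log2 ratio 0.92, 0.83 to 1.02), and Neb, which encodes nebulin, was 207 FPKM in control and 323 in knockdown myotubes (0.64, 0.55 to 0.74). On day 2 both were lower in knockdown cells, with log2 ratios of -0.32 and -0.35. The 402 transcripts of at least 8000 exonic bases had a day 3 median of 0.19 (log2 ratio), with 1.99% lower and 12.4% higher by more than 1.5-fold, and medians of 0.10, -0.01 and -0.39 on days 0, 1 and 2. This longest class held 10 of the 47 clearly higher and 2 of the 112 clearly lower transcripts, so the clearly higher ones lean on it. Transcripts of 1000 to 2000 bases had a median of -0.02 on day 3, with 8.85% lower and 5.42% higher. When each ratio was taken against the median of its length class, Neb came to 0.45 and was no longer past 1.5-fold. The part of transcript length in the values of Ttn and Neb was not tested otherwise.

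**Figure D2:**
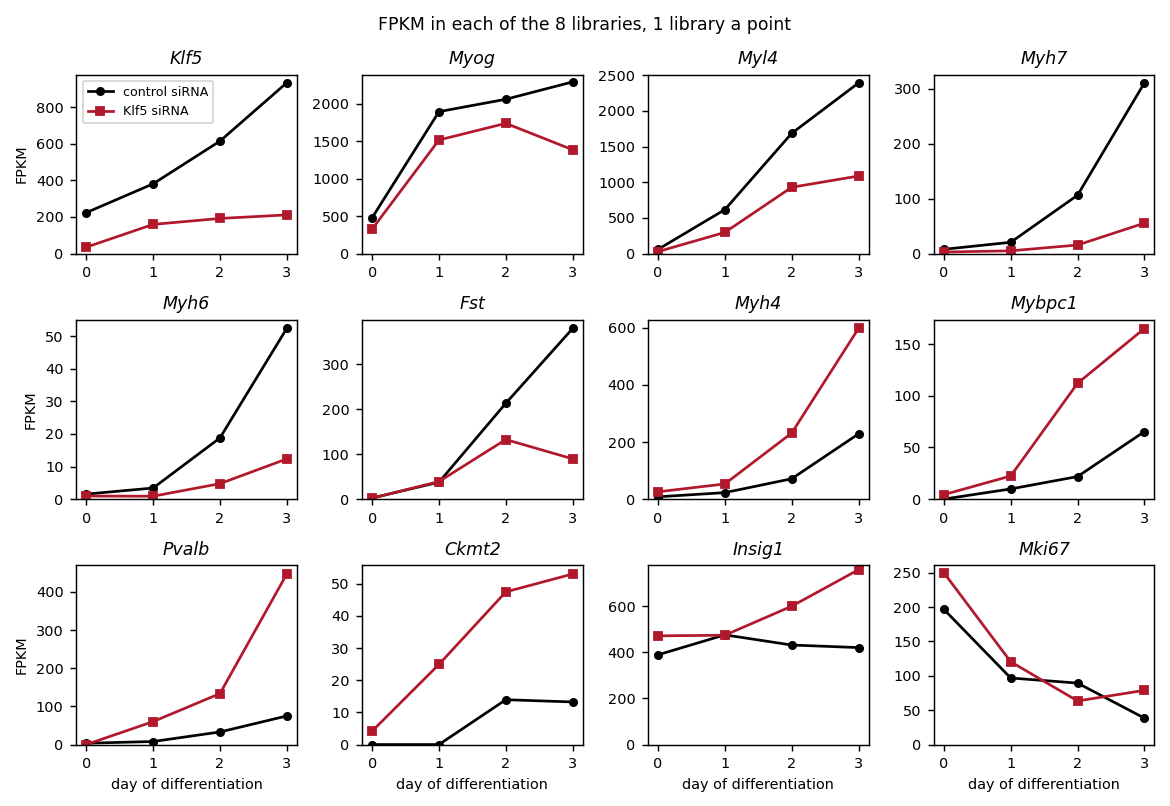
FPKM (y axis, linear, from 0) against day of differentiation (x axis) for 12 genes, with control siRNA in black circles and Klf5 siRNA in red squares, 1 library a point. Klf5, Myl4, Myh7 and Fst lie below the control line on day 3, and Myh4, Mybpc1, Pvalb and Insig1 above it, with Myh4 at 228 against 598 FPKM.

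Of 27 measured genes of the Z disc and costamere, 5 were lower (18.5%, background 6.69%) and 2 higher (7.41%, background 5.48%, median -0.07). Myoz2, the calsarcin of slow fibres, was 412 FPKM in control and 148 in knockdown myotubes (log2 ratio -1.48, -1.97 to -1.02). Myoz1, the calsarcin of fast fibres, was 23.5 FPKM in control and 73.8 in knockdown myotubes (1.65, 0.58 to 2.84). Csrp3, the muscle LIM protein, had a log2 ratio of -0.88, and Sgcd, the delta-sarcoglycan, one of -2.19 that rested on 100 and 19 reads. Of 20 genes of the thin filament and troponin complex, 2 were lower (10.0%) and 1 was higher (5.00%), the latter near the background (median -0.05). Klhl40 and Lmod3, which stabilise thin filaments, had ratios of -0.69 and -0.60, and the cardiac actin Actc1 one of -0.48, while the skeletal actin Acta1 was 4150.1 FPKM in control and 4351 in knockdown myotubes (0.07).

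In excitation-contraction coupling, 3 of 25 genes were lower (background 6.69%) and 2 higher (near the background of 5.48%), with a median of -0.06. Pvalb, which encodes the calcium buffer parvalbumin of fast fibres, stood at 74.9 FPKM in control and 447 in knockdown myotubes (log2 ratio 2.58, 1.92 to 3.29). Scn4a, the muscle sodium channel, was 224 FPKM in control and 119.5 in knockdown myotubes (-0.91, -1.14 to -0.68), and Casq1, the calcium store protein calsequestrin, 766 FPKM in control and 479 in knockdown myotubes (-0.68). Kcnj12, an inward rectifier potassium channel, had a ratio of -1.09. For the supply of energy, 2 of 25 genes were lower and 2 higher, both near the backgrounds of 6.69% and 5.48% (median -0.10). Ckmt2, the sarcomeric mitochondrial creatine kinase, was 13.2 FPKM in control and 53.0 in knockdown myotubes (log2 ratio 1.99), and Ampd1, the muscle AMP deaminase, 27.5 FPKM in control and 67.3 in knockdown myotubes (1.29). Ckb, the brain type creatine kinase, was 626 FPKM in control and 345 in knockdown myotubes (-0.86), and the hexokinase Hk2 had a ratio of -0.60. Gapdh was 2882 FPKM in control and 2883 in knockdown myotubes.

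Among 17 measured myogenic transcription factors, 2 were lower (11.8%, background 6.69%), Myog and the actin-regulated coactivator Mkl1 (-0.59). None, 0 of 17, was higher (background 5.48%), and the median was 0.04. Mef2c was 315 FPKM in control and 218 in knockdown myotubes (log2 ratio -0.53, -0.71 to -0.36). Smyd1, a muscle methyltransferase, was on the higher side (0.44, 0.22 to 0.66). In the fusion list 2 of 23 genes were lower (8.70%, near the background of 6.69%) and 3 higher (13.0%, background 5.48%), with a median of 0.06. Cav3, the muscle caveolin, was 316 FPKM in control and 119 in knockdown myotubes (-1.41, -1.96 to -0.89), whereas Cdh2 (N-cadherin) was 333 FPKM in control and 569.8 in knockdown myotubes (0.77, 0.61 to 0.94). Kirrel and Dock5, which act in myoblast adhesion and fusion, had ratios of 0.61 and 0.59, and Dock5 came to 0.40 when centred within length classes. Of 12 genes of the neuromuscular junction 1 was lower (8.33%, near the background of 6.69%) and 0 were higher (background 5.48%), with a median of -0.09. The neuregulin receptor Erbb3 was 489.7 FPKM in control and 304 in knockdown myotubes (-0.69). The embryonic acetylcholine receptor subunit Chrng (0.47), the receptor subunit Chrna1 (0.28) and the kinase Musk (0.58) had counting intervals above 0.

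**Figure D3:**
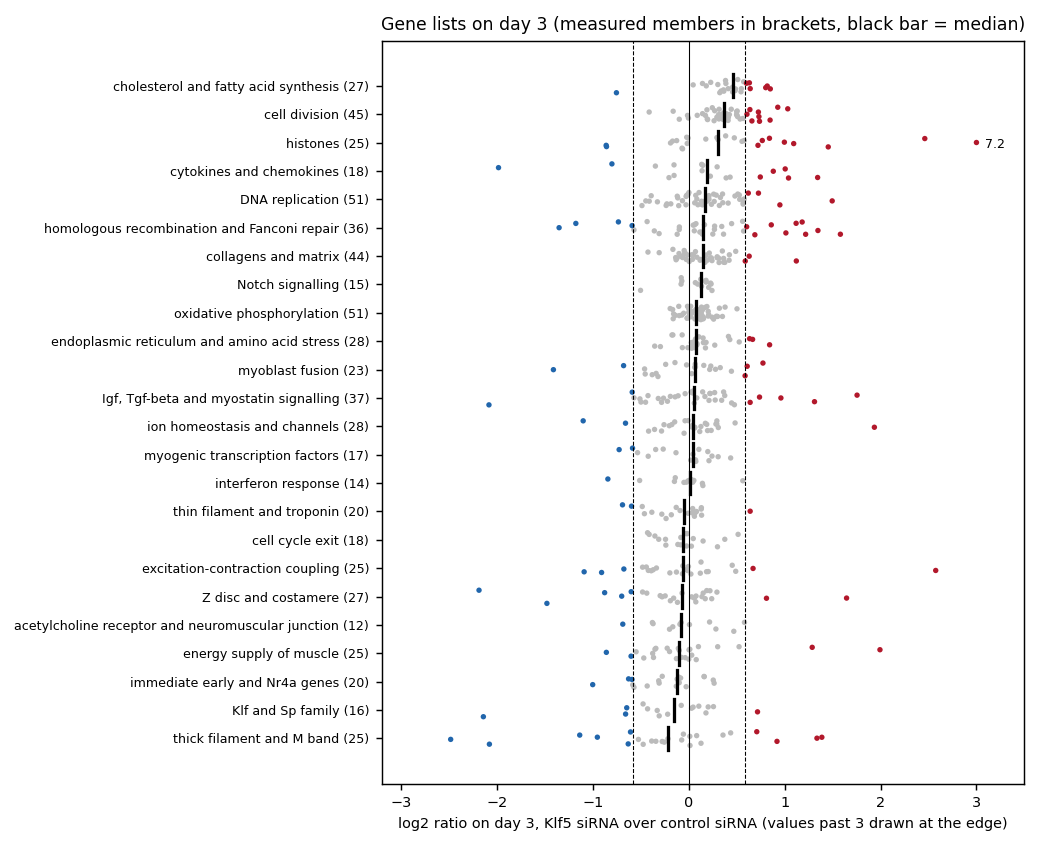
Log2 ratio on day 3 (x axis) of every measured member of 24 gene lists (rows, with the number measured), coloured blue below and red above 1.5-fold. Black bars are list medians, which run from -0.22 for the thick filament and M band to 0.46 for cholesterol and fatty acid synthesis.

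Of 27 measured genes of cholesterol and fatty acid synthesis, 6 were higher by more than 1.5-fold (22.2%, beside 5.48% of all measured transcripts) and 1 was lower (3.70%, beside 6.69%). The median was 0.46, and 23 of the 27 counting intervals lay above 0, beside 854 of 10888 over all measured transcripts. Insig1, the sterol-regulated retention protein of the pathway, stood at 420.0 FPKM in control and 757 in knockdown myotubes (log2 ratio 0.85, 0.66 to 1.04). The sterol enzyme Nsdhl was 168 FPKM in control and 297 in knockdown myotubes (0.82), and the fatty acid elongase Elovl6 55.0 FPKM in control and 96.0 in knockdown myotubes (0.80). Scd2, a stearoyl-CoA desaturase and the most abundant member, was 1709 FPKM in control and 2139 in knockdown myotubes (0.32). The exception was Dhcr7, which carries out the last step of cholesterol synthesis, at 275 FPKM in control and 163 in knockdown myotubes (-0.75, -1.06 to -0.45). The direction was not the same on every day, since the median of this list was 0.06, -0.40 and 0.12 on days 0, 1 and 2.

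Of 45 measured cell division genes, 9 were higher by more than 1.5-fold (20%, beside 5.48% of all measured transcripts) and 0 lower (beside 6.69%). The median was 0.37 and 25 intervals lay above 0, beside 854 of 10888. Mki67, the proliferation marker Ki-67, was 38.5 FPKM in control and 78.9 in knockdown myotubes (log2 ratio 1.03, 0.72 to 1.35), the kinesins Kif4 and Kif2c had ratios of 0.93 and 0.73, and the mitotic kinase Aurka was 71.6 FPKM in control and 129 in knockdown myotubes (0.85). Ube2c, the most abundant member, was 305 FPKM in control and 337 in knockdown myotubes (0.14). These levels were well below those of day 0, when Mki67 stood at 197 in control and 250.1 in knockdown cells. The Mki67 ratio had the opposite sign on day 2 (-0.49, counting interval -0.74 to -0.26). Its transcript has 10059 exonic bases and belongs to the longest class, whose median was -0.39 on day 2 and 0.19 on day 3. The list medians on days 0, 1 and 2 were 0.06, 0.36 and 0.02. Among 51 DNA replication genes 4 were higher (7.84%, near the background of 5.48%) and 0 lower (background 6.69%), with a median of 0.17. Rfc4 was 32.8 FPKM in control and 92.8 in knockdown myotubes, and Gins2, Rfc3 and Mcm4 had log2 ratios of 0.95, 0.62 and 0.57. Among 36 genes of homologous recombination and Fanconi repair 9 were higher (background 5.48%) and 4 lower (background 6.69%), with a median of 0.15. Of these 36 genes 0 were clearly higher or clearly lower. Their counting intervals lay above 0 for 4 genes and below 0 for 2, beside 854 and 914 of 10888 over all measured transcripts. Brca1 was 11.0 FPKM in control and 25.2 in knockdown myotubes (1.18). Rad51c was 10.8 FPKM in control and 32.4 in knockdown myotubes (1.58, from 65 and 171 reads). Exo1 had a ratio of 1.35 (from 47 and 106 reads), whereas Fancc was 36.7 FPKM in control and 14.3 in knockdown myotubes (-1.35). Of all measured transcripts with 60 to 300 reads in the 2 libraries together, 17.2% were higher and 20.3% lower. None of 18 genes of cell cycle exit passed the cutoff (backgrounds 6.69% lower and 5.48% higher), with a median of -0.06. Cdkn1a, which encodes the cell cycle inhibitor p21, was 2806 FPKM in control and 2372 in knockdown myotubes (-0.24, -0.34 to -0.14), and the cyclins Ccnd3 and Ccnd2 had ratios of -0.41 and 0.38. Histones were higher for 8 of 25 genes (background 5.48%) and lower for 2 (background 6.69%), with a median of 0.31. However, 0 of these genes were clearly higher or clearly lower. Only 4 of the 25 counting intervals lay above 0. Replication histone messages also lack poly(A) tails, and Hist1h1e rested on 14 and 68 reads and had a ratio of 2.46. H2afx, whose message is also polyadenylated, was 105 FPKM in control and 189 in knockdown myotubes (0.84).

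Collagens and matrix genes had a median of 0.14, with 3 of 44 higher by more than 1.5-fold (6.82%, near the background of 5.48%) and 0 lower (background 6.69%). For 21 of them the counting interval lay above 0, beside 854 of 10888 over all measured transcripts, and for 2 below 0, beside 914. Col12a1 was 35.5 FPKM in control and 77.4 in knockdown myotubes (log2 ratio 1.12, 0.83 to 1.43), the proteoglycan gene Vcan 78.5 FPKM in control and 122 in knockdown myotubes (0.63), and the basement membrane collagens Col4a2 and Col4a1 had ratios of 0.59 and 0.49. Sparc, the most abundant, was 2655 FPKM in control and 2573 in knockdown myotubes (-0.05). The members of this list were long, with a median of 5119 exonic bases, and when centred within length classes Vcan (0.44) and Col4a2 (0.56) no longer passed 1.5-fold.

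**Figure D4:**
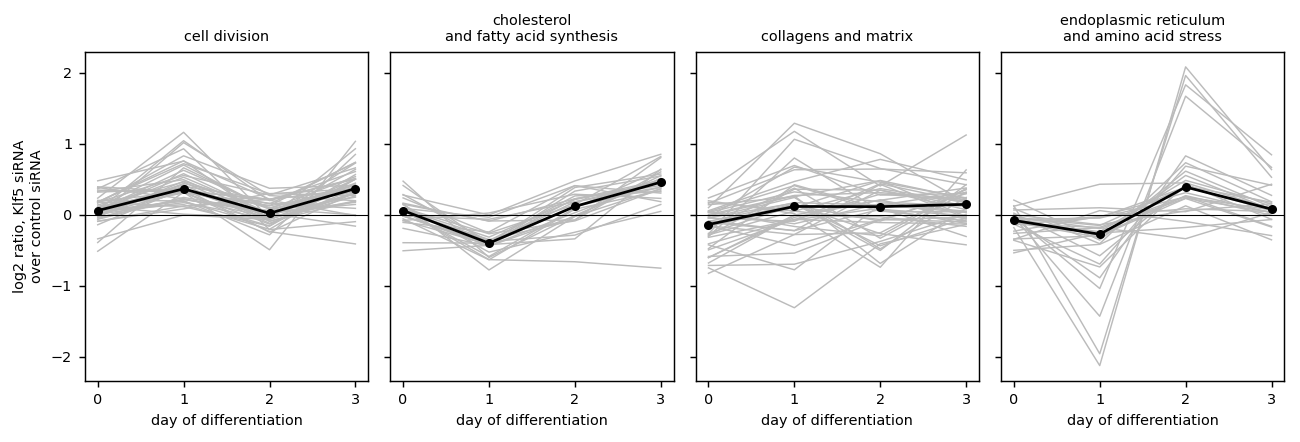
Log2 ratio of Klf5 siRNA over control siRNA (y axis) on each day of differentiation (x axis) for the measured genes of 4 lists, 1 grey line a gene and black points for the list median. The cholesterol list stands at -0.40 on day 1 and 0.46 on day 3, and several genes of the endoplasmic reticulum and amino acid stress list pass from below -1 on day 1 to above 1 on day 2.

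In the Igf, Tgf-beta and myostatin list, 2 of 37 genes were lower (5.41%, below the background of 6.69%) and 5 higher (13.5%, background 5.48%, median 0.06). Fst (NM_001301373, chromosome 13, 115242470 to 115249159, minus strand), which encodes follistatin, a secreted inhibitor of activins and myostatin, stood at 379 FPKM in control and 89.4 in knockdown myotubes (log2 ratio -2.08, -2.48 to -1.70). Its course was 2.39, 37.6, 213 and 379 FPKM in control and 1.97, 39.1, 132 and 89.4 in knockdown cells on days 0 to 3, so that the libraries parted from day 2 on. Inhba, the activin A subunit, was 46.7 FPKM in control and 116 in knockdown myotubes (1.31, 0.59 to 2.07). The Smad inhibitor gene Smad7 was 16.8 FPKM in control and 32.9 in knockdown myotubes (0.96). Igfbp3 was 12.0 FPKM in control and 40.8 in knockdown myotubes (1.76), and the far more abundant Igfbp5 2046 FPKM in control and 2596 in knockdown myotubes (0.34). Among 18 cytokine and chemokine genes 2 were lower (11.1%, background 6.69%) and 5 higher (27.8%, background 5.48%), with a median of 0.19, and 0 were clearly higher. Il33, an alarmin, was 135 FPKM in control and 34.0 in knockdown myotubes (-1.98, -2.66 to -1.36) and was lower on every day. The chemokines Ccl7 and Cxcl5 had ratios of 1.34 (0.15 to 2.67) and 1.04 (0.18 to 1.95). Of 20 immediate early genes 3 were lower (15.0%, background 6.69%) and 0 higher (background 5.48%), with a median of -0.13. The orphan receptor gene Nr4a1 was 102 FPKM in control and 50.9 in knockdown myotubes (counting interval -1.60 to -0.43), and Myc had a ratio of -0.58. No gene of the Notch list passed the cutoff among 15 (backgrounds 6.69% lower and 5.48% higher), with a median of 0.13. Hes6, a factor that promotes myogenesis, had a ratio of -0.50 (-0.75 to -0.26). Of 28 ion transport genes 2 were lower (7.14%, near the background of 6.69%) and 1 higher (3.57%, background 5.48%), with a median of 0.05. Of 14 interferon genes 1 was lower (7.14%, near the background of 6.69%) and 0 higher (background 5.48%), with a median of 0.01. None of 51 genes of oxidative phosphorylation passed the cutoff (backgrounds 6.69% lower and 5.48% higher), with a median of 0.08 and a range of -0.19 to 0.50. No other of the 24 lists had so narrow a range.

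Genes of the endoplasmic reticulum and amino acid stress list passed the cutoff in 3 of 28 cases on the higher side (10.7%, background 5.48%) and 0 on the lower (background 6.69%), with a median of 0.08. Mthfd2, a mitochondrial folate enzyme, was 199 FPKM in control and 357 in knockdown myotubes (log2 ratio 0.84), and Asns, asparagine synthetase, 141 FPKM in control and 223 in knockdown myotubes (0.67). On day 1 both were lower in knockdown cells, with ratios of -1.04 and -1.43, and on day 2 higher, with 1.83 and 1.67.

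Among the clearly lower transcripts, the largest reductions were the following. Ptprf, a receptor tyrosine phosphatase, was 147 FPKM in control and 14.3 in knockdown myotubes (log2 ratio -3.35, -3.93 to -2.84), and its knockdown values never passed 14.7 FPKM, while control cells went from 21.3 to 147. Dnase1l3, a secreted nuclease, was 64.5 FPKM in control and 3.78 in knockdown myotubes (-4.06, -5.95 to -2.71) and 0 in both libraries on day 0. Als2cl, a relative of the guanine exchange factor alsin, was 73.9 FPKM in control and 6.51 in knockdown myotubes (-3.48, -4.61 to -2.57), and Jakmip1 was 77.3 FPKM in control and 6.60 in knockdown myotubes (-3.53). Cd24a, a surface glycoprotein, was 58.2 FPKM in control and 5.85 in knockdown myotubes (-3.29). Atp6v1c2, a proton pump subunit, was 93.5 FPKM in control and 7.77 in knockdown myotubes (-3.57). Further genes among the 12 largest reductions were Smim6 (-4.14, from 64 and 3 reads), Galnt18 (-3.65, from 92 and 6 reads), Adprhl1 (-3.44), Tekt5 (-3.28) and Syngr1 (-2.84). The spans of Smim6 and Atp6v1c2 overlap genes on the other strand, Recql5 and Pdia6, and a microRNA gene lies within Ptprf. Strand was ignored in counting, so reads could not be told apart wherever exons of such a pair overlap. Only spans were compared, and overlap of exons was not checked.

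Among the clearly higher transcripts, the largest ratio was that of Grb10, an imprinted adaptor that binds insulin and Igf receptors, at 2.57 FPKM in control and 42.9 in knockdown myotubes (log2 ratio 4.01, 2.66 to 5.94). It was 0.857, 1.97, 2.26 and 2.57 FPKM in control and 1.53, 8.85, 32.1 and 42.9 in knockdown cells on days 0 to 3, and the distance grew from day to day. The protein kinase gene Rps6ka1 was 7.77 FPKM in control and 58.4 in knockdown myotubes (2.89), and the cannabinoid receptor gene Cnr1 6.64 FPKM in control and 42.0 in knockdown myotubes (2.64). Serpinb9g was 2.80 FPKM in control and 42.0 in knockdown myotubes (3.86, 1.83 to 7.23, from 11 and 144 reads). Efna5, an ephrin, was 0.929 FPKM in control and 10.8 in knockdown myotubes (3.41, 1.33 to 7.15, from 10 and 102 reads). Ratios of the others were 2.25 for the serotonin receptor gene Htr2b, 1.97 for Ddc, 1.89 for the growth factor gene Fgf5 and 1.83 for the mitotic kinase gene Gsg2, with Pvalb, Ckmt2 and Igfbp3 as given. The spans of Htr2b and Ddc overlap genes on the other strand, Psmd1 and 1700042O10Rik.

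**Figure D5:**
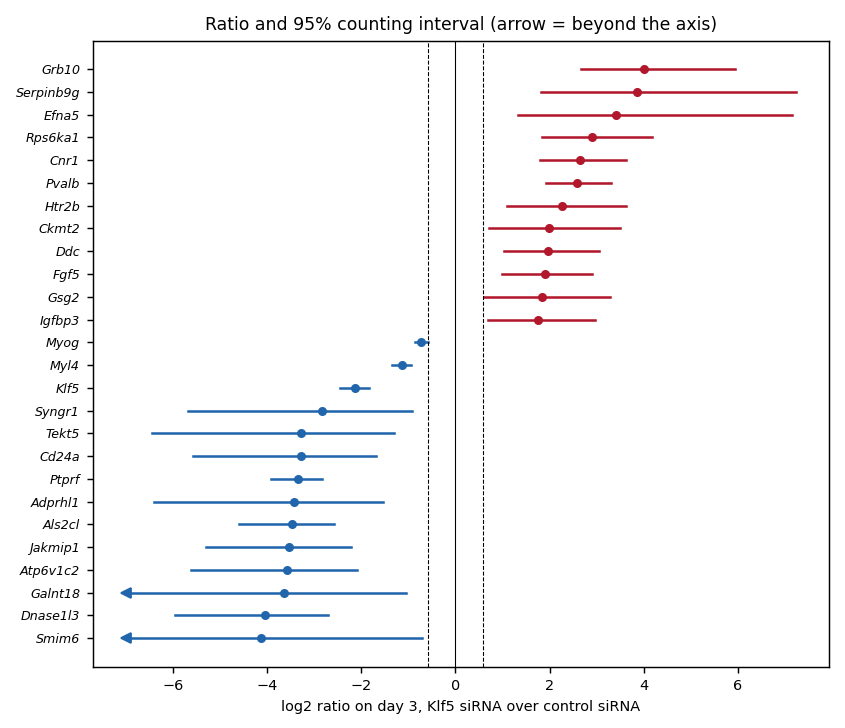
Points give the log2 ratio of Klf5 siRNA over control siRNA on day 3 (x axis) for Klf5, Myog, Myl4, 11 of the 12 largest reductions and the 12 largest increases among clearly lower or higher transcripts. Lines are 95% counting intervals, and arrows mark intervals that run past the axis. The interval of Klf5, -2.45 to -1.84, is far narrower than that of Smim6.

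Separate libraries of the other days were set beside these transcripts. Of the 112 clearly lower on day 3, 96 were also lower by more than 1.5-fold on day 2 (85.7%, background 6.74%), 62 on day 1 (55.4%, background 6.44%) and 37 on day 0 (33.0%, background 5.57%). Of the 47 clearly higher, 24 were higher on day 2 (51.1%, background 2.67%), 19 on day 1 (40.4%, background 11.2%) and 11 on day 0 (23.4%, background 4.02%). Over all 728 lower transcripts the share on day 2 was 35.3%, and over all 597 higher ones 18.3%. Some went the other way. Of the 112, 11 were higher on day 0 (9.82%, background 4.02%), 7 on day 1 (6.25%, background 11.2%) and 1 on day 2, and of the 728, 10.9%, 17.2% and 4.40% were higher on days 0, 1 and 2. Of the 47, 4, 2 and 1 were lower on these days, and of the 597, 9.21%, 11.2% and 8.04%. Of the 112, 23 were past the cutoff on all 4 days, among them Klf5, Myh7, Myh6, Myl4, Il33, Jakmip1 and Als2cl. Of the 47, 8 were, among them Grb10, Rps6ka1, Cnr1, Ckmt2, Ddc, Myh4 and Mybpc1. The share over all measured transcripts was not counted. Some early ratios rest on few reads. On day 0 control and knockdown cells had 7 and 0 reads of Jakmip1, 18 and 10 of Myh6, 8 and 13 of Grb10 and 0 and 11 of Ckmt2. These 4 counting intervals included 0, while those of Klf5, Il33 and Myh4 on day 0 did not. Each day's ratio has its own pair of libraries, but all were made from 1 cell line and siRNA pool, and all 8 libraries entered the mean of at least 10. Some members met that mean only through the side where they were high. Grb10 had a mean of 11.6 FPKM and at most 2.57 in control, and Jakmip1 a mean of 16.4 and at most 6.60 in knockdown cells. For such members the same direction on other days is no independent support.

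Most of the clearly lower transcripts were more abundant in differentiated than in undifferentiated control cells. Their median level in control cells was 18.8 FPKM on day 0 and 111 on day 2, against 13.7 and 53.5 in knockdown cells. Of the 112, 82 (73.2%) stood more than 2-fold above day 0 on day 2 in control cells, beside 9.63% of all measured transcripts. The same held for 23 of the 47 clearly higher transcripts (48.9%), whose median went from 19.4 to 43.5 FPKM in control and from 27.8 to 53.6 in knockdown cells between these days. Day 0 and day 2 values use no day 3 library, whereas the day 3 levels chose these transcripts. The day 0 and day 2 values did enter the mean of at least 10, which some members met only through late control values. Adprhl1, with a mean of 11.4 FPKM, stood at 0, 2.30, 24.8 and 59.0 in control on days 0 to 3. A clearly lower call also needs enough control reads on day 3, so a rise in control cells was partly selected for. These shares are a description only.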

How the data were processed

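Poly(A) RNA of C2C12 cells was sequenced from both ends. The authors aligned reads to mm9 with STAR and counted them with HOMER on the exons of RefSeq transcripts, ignoring strand, keeping no more than 3 reads at a position and a single transcript for each gene. They deposited FPKM values scaled to 10000000 per library, and log2 columns of FPKM plus 1 plus an added number between 0 and 1, used here only in an alternative. 1 log2 column names no day and was not used. Labels mention DESeq2 normalization, and those counts were not used here.

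Reads were recovered as FPKM times exon length over the step of 1 read, and 100% of values under 100 reads lay within 0.1 of a whole number. Transcripts with exactly 6 reads outnumbered those with 5 (471 against 64 in the day 3 control library), so intervals were computed on reads divided by 6. Ratios used a pseudocount of 0.1, a mean FPKM of at least 10 and a 1.5-fold cutoff, without a test. Members, the 24 gene lists and the 7 marker lists were chosen with earlier results of these data known. Named genes were Klf5, Myog and Myl4, the 12 largest reductions and increases among transcripts whose whole interval passed 1.5-fold, up to 4 members per list with intervals excluding 0 plus the most abundant, and the Klf and Sp family. A few of the genes this rule names are not reported here. Fetub, Gbp2, Prdm9 and their 3 neighbours below the mean of 10 show the edge of the rule. Alternatives were other pseudocounts, filters, scalings, cutoffs, read units and centring by exon length (chosen after seeing the data). Promoters came from RefSeq windows. The calculations were tested on simulated data. Software versions were scipy 1.17.1 (intervals), pandas 2.3.3 with numpy 2.4.6 (tables), matplotlib 3.10.9 (figures) and Python 3.11.15. Coordinates are on mm9 as the table gives them, and promoter windows are on GRCm38.p6.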

Additional observations from a re-analysis of the deposited data

Results flagged for a closer look

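Fgf21, which encodes a hormone that many cells release under metabolic stress, lay on opposite sides on different days, with whole counting intervals past 1.5-fold in both directions. On day 1 it was 214 FPKM with control siRNA and 62.1 with Klf5 siRNA (log2 ratio -1.79), and on day 3 it was 102 in control and 300.5 in knockdown myotubes (1.55, counting interval 0.95 to 2.18). On day 2 the ratio was 2.47 and on day 0 it was 0.23. The difference between days was not tested, since there was 1 library per siRNA and day. Fgf21 was chosen after its values were seen.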

How the results depend on the processing

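No paired analysis was possible because day 3 has 1 library per siRNA and the labels give no replicate number. A fit over all 4 days with day as a block could be made, but would not compare day 3 alone, and was not run. Against 728 lower and 597 higher transcripts, no filter on low values gave 2359 and 2136 of 20486, a mean of at least 50 gave 307 and 225 of 8231, a cutoff of 2-fold gave 257 and 177, and requiring the same direction past 1.5-fold on day 2 gave 257 and 109. Fewer transcripts were tested, or a further condition was set, in the last 3. Against 112 clearly lower and 47 clearly higher transcripts, reads taken singly gave 296 and 223, and reads divided by 3 gave 95 clearly higher. The other 7 alternatives kept both counts of 1.5-fold within 1.5 times. All 144 alternative list medians moved by less than the usual counting error of a member, though those of the myogenic factor, Igf and interferon lists, all near 0, changed sign in 1 alternative each, and 574 alternative values of named genes kept within the gene's counting interval, with 1 exception, Neb (0.45 when centred within length classes). Near the cutoff, Mkl1, Lmod3, Hk2, Kirrel, Dock5, Vcan, Col4a2 and Sp6 no longer passed 1.5-fold in at least 1 alternative, and Musk, Mcm4 and Myc, among others, passed it. Upper-quartile scaling moved the median of all transcripts by 0.03 and median-ratio centring by -0.0009. Depth limits the low transcripts, since those under 60 reads had intervals that reached a median of 2.83 on the log2 scale to either side. With 1 library a side, differences between cultures and effects of the siRNA cannot be told apart.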

Other observations

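Several clearly lower transcripts outside the gene lists, chosen after their values were seen, encode surface, secreted or regulatory proteins. Msln, which encodes the surface protein mesothelin, was 1155 FPKM in control and 312 in knockdown myotubes on day 3 (log2 ratio -1.89, counting interval -2.12 to -1.66), and it was below control on every day. The annexin gene Anxa8 was 725 FPKM in control and 178 in knockdown myotubes (-2.03), but on days 0 and 1 its ratios were 0.23 and 0.28. The ligand gene Wnt10a was 222 FPKM in control and 57.1 in knockdown myotubes (-1.96), and the Fgf receptor-like gene Fgfrl1 254 FPKM in control and 59.7 in knockdown myotubes (-2.09). Trp63, which encodes the transcription factor p63, was 166 FPKM in control and 69.6 in knockdown myotubes (-1.26). Npnt, which encodes the integrin ligand nephronectin, was 1333 FPKM in control and 651 in knockdown myotubes (-1.03), and the integrin gene Itga6 179 FPKM in control and 86.0 in knockdown myotubes (-1.06). The receptor gene Erbb2 was 344 FPKM in control and 181 in knockdown myotubes (-0.93), beside the partner receptor gene Erbb3 at -0.69. Prkag3, an AMPK subunit of skeletal muscle, was 413 FPKM in control and 136 in knockdown myotubes (-1.61).

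Clearly higher transcripts chosen in the same way included 2 regulators known from muscle. Mamstr, a coactivator of Mef2 factors, was 41.6 FPKM in control and 124 in knockdown myotubes (1.57, 0.96 to 2.22), and Abra, an actin-binding protein of striated muscle, 95.7 FPKM in control and 222 in knockdown myotubes (1.21, 0.75 to 1.70). Tceal7 was 222 FPKM in control and 592 in knockdown myotubes (1.41). The interleukin receptor gene Il1r1 was 86.2 FPKM in control and 178 in knockdown myotubes (1.05), and Pdk4, which holds back pyruvate oxidation, 38.0 FPKM in control and 85.2 in knockdown myotubes (1.16). These are values of 1 library a side, and no explanation of them was tested.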
